A study of Mus musculus with 3 samples.

Results

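The sites described here are places in the mouse genome where phospho-STAT3 was strongly enriched, where no other strong site lay nearby, and where H3K4me3 formed no region. They were found in a phospho-STAT3 ChIP-seq library. A site was a window of 200 bp, or several that overlapped or touched, in which both strands held reads, 10 or more reads fell in all, and the Poisson p was under 1e-08. The expected number came from the 10 kb centred on the window, the window's own reads included, or from the whole genome, whichever was higher. A site was strong when the reads of its highest window exceeded the local expectation by at least 26, a difference called its excess. It was kept when no other strong summit lay within 12.5 kb, when its own summit was over 2 kb from every H3K4me3 region, and when it lay on chromosomes 1 to 19 beyond position 3100000. Of 26571 sites on these chromosomes, 6771 were strong, 4408 of these were isolated, and 2946 were also away from H3K4me3, which is 11.1% of all sites and 43.5% of the strong ones. The other 1462 isolated strong sites lay within 2 kb of an H3K4me3 region.

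STAT3 is a transcription factor that IL-6 activates and that T cells need to become Th17 cells, the helper T cells that make IL-17. It binds DNA at promoters and also at distal elements such as enhancers, which act on genes from a distance. H3K4me3 is trimethylation of lysine 4 on histone H3, a mark that is high on the nucleosomes around active promoters and usually low at distal elements. Because the mark sits on nucleosomes, the pattern of H3K4me3 reads around a site also shows where marked nucleosomes lie.

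All cells were naive CD4+CD44-CD62L+ T cells, sorted and cultured for 72 h on anti-CD3 and anti-CD28 with IL-6 at 10 ng/ml, TGF-b at 2.5 ng/ml and antibodies that block IL-2, IL-4 and IFN-g, then given IL-6 at 10 ng/ml again for 1 h. The wild-type cells were Stat3fl/fl FoxP3-GFP without Cre, and the STAT3-deficient cells were Stat3fl/fl FoxP3-GFP with CD4-Cre, so every group carried the loxP-flanked Stat3 allele and the FoxP3-GFP reporter, and Cre was the difference between them. CD4-Cre acts in cells that express or once expressed Cd4, and the allele is therefore removed before the culture begins. There was 1 library each of wild-type H3K4me3 (12281399 reads), STAT3-deficient H3K4me3 (12075963 reads) and wild-type phospho-STAT3 (10127075 reads, with an antibody against the phosphorylated serine Ser727), so the genotypes could not be compared over replicates and no test between them was possible. The sources used here give neither the ages nor the numbers of mice, and an input library was not analysed here.

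Stat3 was not placed on the build of the reads here, so the genotype labels were not checked at the deleted gene. H3K4me3 regions, called on both H3K4me3 libraries pooled, took in 7.14% of wild-type reads and 8.84% of STAT3-deficient reads. Positions are given on mm9, the build the submitters name for the reads. No genome of that build was used here and gene positions were known only for another build, so no gene is named at any site, no DNA sequence is printed, and the labelled cell type was not checked against marker genes.

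The values in this paragraph chose the sites and are a description of them. The highest window of an isolated site held a median of 37 phospho-STAT3 reads (27 to 225) over a local expectation with a median of 2.74 reads, a median of 14.8-fold. An expectation from the 10 kb holds the site's own reads. This makes excess and fold smaller than against the surroundings alone, most at the tallest sites. The sites were narrow, with a median width of 400 bp, and the reads of the window were evenly split between strands, with a median of 50% on the minus strand. The excess had a median of 34.2 reads. Most sites were only moderately above the threshold, since 75% had an excess of at most 43.8 and only 50 reached 100. At the threshold itself, the lowest members were at chr11:118077250-118077849, chr12:34055200-34055599 and chr13:46564950-46565299, each with an excess of 26 reads, and the nearest sites outside were at chr12:100924850-100925199, chr15:96107450-96107899 and chr17:35048800-35049349, each with 25.98.

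The tallest isolated site lay at chr11:86437750-86438249 and held 225 phospho-STAT3 reads, 107 of them on the minus strand, 28.8-fold over its local expectation. It was 36.2 kb from the nearest H3K4me3 region, and within 1 kb of its summit it held 9 wild-type and 8 STAT3-deficient H3K4me3 reads. The next, at chr3:52358900-52359449, held 212 reads at 29.7-fold and lay 283 kb from a region. It held 21 wild-type and 19 STAT3-deficient H3K4me3 reads, so neither of the 2 tallest sites stood out in the mark among the isolated sites.

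The site at chr13:56702400-56703049 held 194 phospho-STAT3 reads (23.2-fold), with 13 wild-type and 10 STAT3-deficient H3K4me3 reads around it, and lay 7.95 kb from an H3K4me3 region described further on. The site at chr7:87773450-87774249 held 177 reads at 17.3-fold. The other 11 of the 15 tallest sites held 134 to 156 reads and lay on chromosomes 1, 2, 3, 5, 9, 15 and 16, between 4.90 and 659 kb from a region. The highest fold over the local expectation among these 15 was 36, at chr1:145313150-145313649, with 144 reads. At each of the 15, the 95% interval of the H3K4me3 ratio of the genotypes included no difference.

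**Figure D1:**
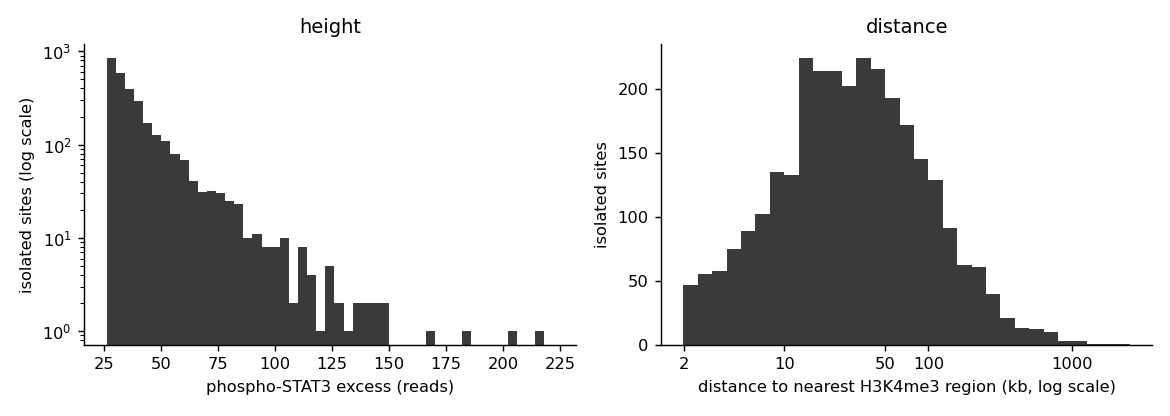
Left, the number of isolated sites (log scale) by phospho-STAT3 excess in reads. Right, the number of sites by distance to the nearest H3K4me3 region in kb (log scale). Most sites lie just above the threshold of 26 reads, and the distances have a median of 29.0 kb.

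Isolation held for strong neighbours only. The nearest other strong summit was a median of 59.7 kb away, but 1377 sites had a weaker phospho-STAT3 site within 12.5 kb, and 1569 (53.3%, Wilson 95% interval 51.5 to 55.1) had no other site of any strength there. The distance to the nearest H3K4me3 region had a median of 29.0 kb, and 2385 sites (81.0%) were over 10 kb, 961 (32.6%) over 50 kb and 448 (15.2%) over 100 kb from one. The farthest, at chr3:149002350-149002749, lay 2392.5 kb from any region and still held 33 phospho-STAT3 reads at 14.3-fold. The next in distance were at chr5:17061950-17062349 (1866 kb, 28 reads), chr12:43036500-43036899 (1285.5 kb, 31 reads), chr1:147191450-147191899 (1095.5 kb, 60 reads) and chr1:14736850-14737299 (1059 kb, 39 reads). The median excess was 33.4 reads for the 561 sites at 2 to 10 kb, 34.1 for the 1424 at 10 to 50 kb and 34.9 for the 961 farther away, values that the shared minimum of 26 holds close together. The sites were spread over all 19 chromosomes, from 0.823 per Mb on chromosome 14 to 1.60 per Mb on chromosome 15, with 1.19 per Mb overall.

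The comparison of the H3K4me3 libraries asks whether the mark beside these sites depends on Stat3. The rule used H3K4me3 reads of both libraries pooled, and only to keep sites away from regions, so the split of the reads between genotypes was not used to choose members. Summed within 1 kb of the summits, the reads of the H3K4me3 libraries were nearly equal in number: 48547 wild-type and 47645 STAT3-deficient. The log2 ratio of STAT3-deficient over wild-type was -0.0027 by library totals (95% interval -0.02 to 0.02). Intervals here and below are exact (Clopper-Pearson) for reads unless named otherwise, cover counting error only, and treat reads as independent, although the libraries carry no molecular identifiers. A site had a median of 16 wild-type and 15 STAT3-deficient reads, with ranges of 1 to 70 and 0 to 63. By the scaling that sets the median of H3K4me3 regions to 0, the same sum gave -0.32, since that scaling shifts all values by 0.32, so the direction of the summed amount rests on the scaling. With the level at 3 to 5 kb from the summits subtracted, 4880.5 wild-type and 4449.5 STAT3-deficient reads were left. Their log2 ratio by library totals was -0.11, without an interval. Most summed reads were thus at the level of the flanks, which library totals bring close together. The near equality therefore does not show that the mark itself was unchanged.

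Few single sites were called different. Of 2551 sites with at least 20 pooled reads, 51 were lower and 47 higher by at least 2-fold with an interval that left out 0 on the log2 scale, which is 2.0% and 1.84%. Over all 23338 phospho-STAT3 sites with as many reads, 1.56% were called lower and 1.98% higher, and over the 14696 such sites more than 2 kb from regions, 2.05% and 1.95%. The shares for isolated strong sites are near these backgrounds and are not a result about them. With the median of H3K4me3 regions set to 0, the counts were 191 lower (7.49%) and 14 higher (0.549%). By that scaling, all sites gave 5.18% lower and 0.531% higher, and sites more than 2 kb from regions 7.22% and 0.47%, so the isolated sites were again near the sites like them.

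The site with the interval farthest below 0 was at chr13:16733450-16734349, with 20 H3K4me3 reads in wild-type and 2 in STAT3-deficient cells and a log2 ratio of -3.30 (-6.44 to -1.26). Those at chr7:108699650-108700099 and chr13:59773650-59773999 held 36 and 7, and 34 and 7 reads, with log2 ratios of -2.34 and -2.26. The last pair was at chr18:78175600-78175999, with 48 and 15 reads, and chr7:118300900-118301249, with 45 and 15. The wild-type reads of these 5 sites, 20 to 48, were above the median of 16 for isolated sites, and the STAT3-deficient reads, 2 to 15, at or below the median of 15. Picking sites by low ratios favours such counts, so they do not show which library moved.

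In the other direction, the site at chr19:53495600-53495999 held 13 wild-type reads against 41 without STAT3, a log2 ratio of 1.68 (0.75 to 2.71). The site at chr13:102566800-102567349, with 103 phospho-STAT3 reads, held 15 and 44. The remaining sites were at chr13:74907850-74908349 (20 and 54 reads), chr2:71505750-71506249 (10 and 33) and chr13:96455650-96456049 (7 and 24). These sites were picked for such values out of 2551, so their ratios are a description.

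**Figure D2:**
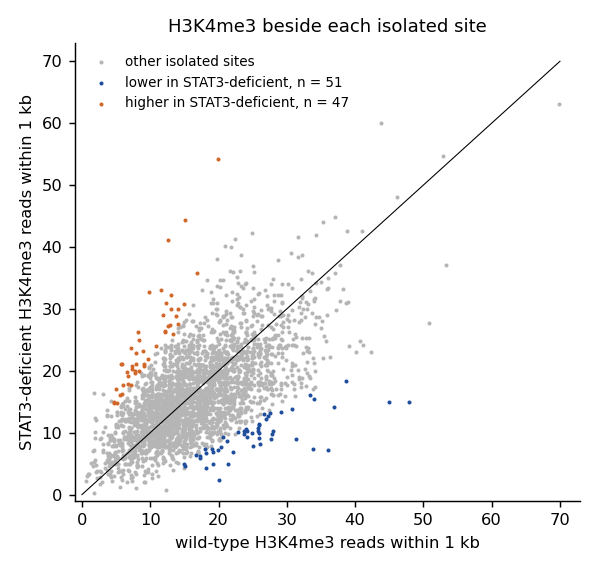
Each point is an isolated site, with wild-type H3K4me3 reads within 1 kb of the summit on the x axis and STAT3-deficient reads on the y axis, spread by up to 0.4 reads to part overlapping points; the line marks equal reads. The cloud lies along the line, with 51 sites called lower and 47 called higher.

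The H3K4me3 libraries differed in where the reads lay around the summits of the isolated sites, while the sums within 1 kb were nearly equal by library totals. In wild-type cells H3K4me3 reads dipped at the summit of phospho-STAT3 and rose on either side, whereas in STAT3-deficient cells they formed a plateau over the summit. In the 50 bp just left of the summit, per 1000 sites and 10000000 reads, there were 362 wild-type and 475 STAT3-deficient reads. In the bin from 200 to 151 bp to the left the order was turned, with 511 reads in wild-type and 447 in STAT3-deficient cells, and in the mirrored bin on the right the values were 481 and 420. The wild-type profile thus had a hump on each side of the summit, and the STAT3-deficient profile stayed between 446 and 476 from 150 bp left to 149 bp right of it.

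To put a size on this, reads within 100 bp of the summit (the centre) were set against reads at 100 to 300 bp on either side (the shoulders), per bp and within each library, which makes the value free of any scaling between libraries. This measure was chosen after the profile had been seen. The wild-type library held 5524 centre and 12279 shoulder reads, a centre-over-shoulder ratio of 0.900 (0.871 to 0.929). The STAT3-deficient library held 6655 and 11370, a ratio of 1.17 (1.14 to 1.21). The ratio was thus 1.30-fold higher without STAT3, a log2 difference of 0.38 (Woolf 95% interval 0.32 to 0.44). By library totals, the centre was higher in STAT3-deficient cells by a log2 ratio of 0.29 (0.24 to 0.34) and the shoulders were lower, at -0.09 (-0.12 to -0.05). The sum of both windows was nearly equal, at 0.04 (0.01 to 0.07). Scaling by the median of H3K4me3 regions, which takes 0.32 from each of these 3 log2 ratios, turns the centre and the sum negative and leaves the centre-over-shoulder difference as it is.

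**Figure D3:**
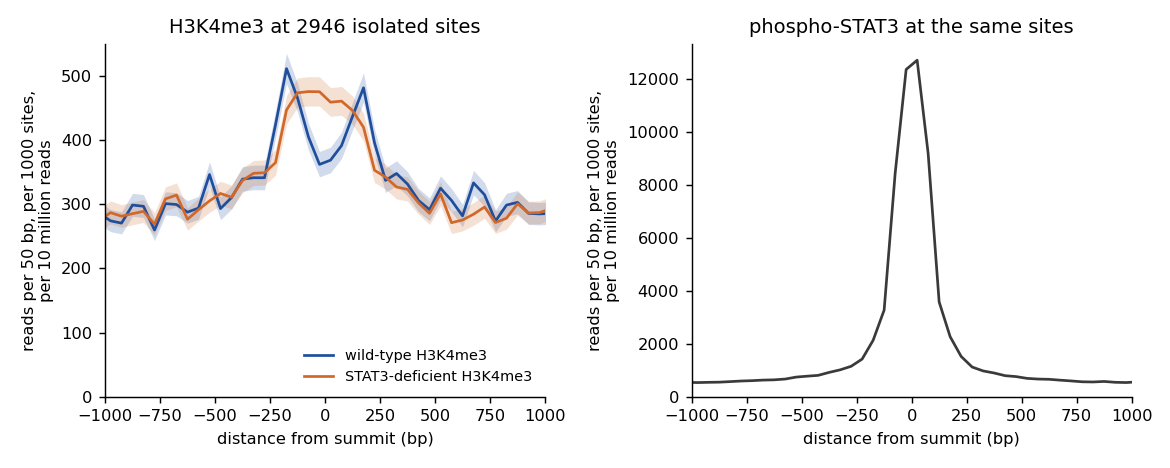
Reads per 50 bp, per 1000 sites and per 10000000 reads of the library, against the distance from the phospho-STAT3 summit in bp at the isolated sites, for H3K4me3 (left, wild-type blue and STAT3-deficient orange, shaded 95% Poisson intervals) and phospho-STAT3 (right). The wild-type curve falls to 362 just left of the summit between its humps, where the STAT3-deficient curve is at 475.

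The difference was seen on each strand and on each chromosome. From plus-strand reads alone the ratio was 0.912 in wild-type and 1.19 in STAT3-deficient cells, and from minus-strand reads 0.887 and 1.15. The distance between strands at which reads paired most often was 145 bp in both H3K4me3 libraries, so fragments were of like length by this measure, and 90 bp in the phospho-STAT3 library. On 19 of 19 chromosomes the wild-type ratio was below the STAT3-deficient ratio, with wild-type values of 0.663 (chromosome 12) to 1.13 (chromosome 6) and STAT3-deficient values of 0.981 (chromosome 3) to 1.64 (chromosome 18). The ranges of the libraries overlap, and chromosomes of 1 library are not replicates. When reads were left where they start, without the move of 75 bp, sites were called anew and the log2 difference was 0.16 (0.10 to 0.23). Cultures, chromatin preparations and genotype cannot be told apart with 1 library each.

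The wild-type dip was deepest at the tallest sites. For the 856 sites with an excess of 26 to 30 reads the wild-type ratio was 0.916 and the STAT3-deficient ratio 1.17. For the 1133 sites with an excess of 30 to 40 the values were 0.920 and 1.17, so the wild-type ratio did not fall between these 2 bins. For the 665 sites with an excess of 40 to 60 the values were 0.888 and 1.19, and for the 242 with 60 to 100 they were 0.869 and 1.18. The 50 sites with an excess of 100 or more had the lowest wild-type ratio, 0.582 (0.448 to 0.749), beside 0.969 (0.766 to 1.22) in STAT3-deficient cells. The log2 differences from the lowest to the highest bin were 0.35, 0.35, 0.43, 0.44 and 0.74, but the last has a 95% interval of 0.25 to 1.22 that takes in all the others, so a rise with height was not distinguishable at this depth. At the 15 tallest sites together, the wild-type library held 25 centre and 58 shoulder reads and the STAT3-deficient library 36 and 43. With 0 to 9 reads per site in each of these windows, the pattern could not be read at any of these 15 alone: the site at chr13:56702400-56703049 had 1 centre and 3 shoulder reads in wild-type and 7 and 0 in STAT3-deficient cells.

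**Figure D4:**
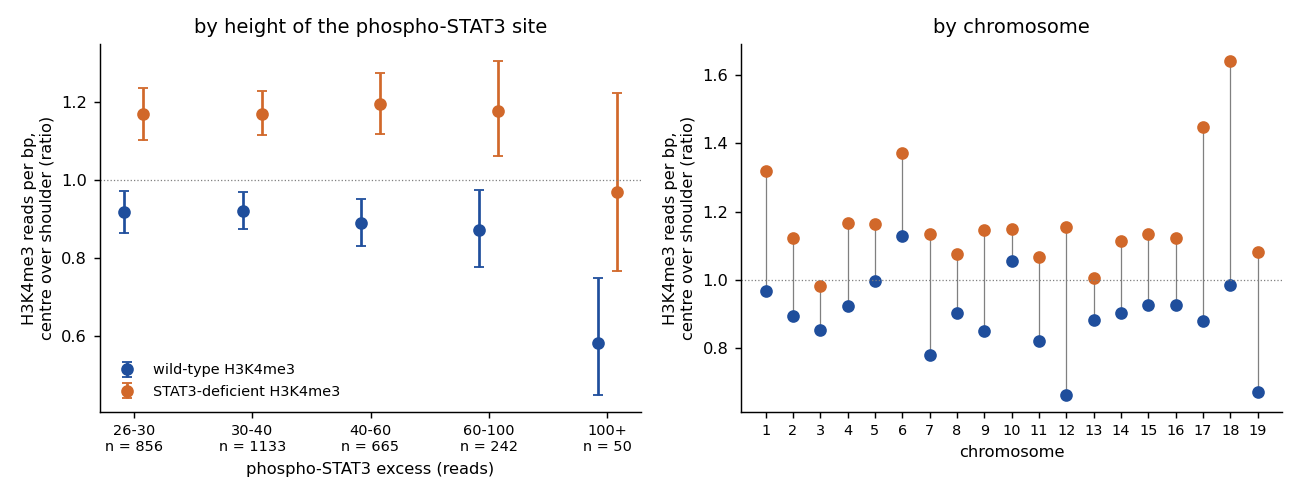
H3K4me3 reads per bp within 100 bp of the summit over those at 100 to 300 bp, for wild-type (blue) and STAT3-deficient (orange) libraries, by phospho-STAT3 excess (left, bars are exact 95% intervals) and by chromosome (right, lines join the libraries). The wild-type value is the lower in each of the 5 bins and on each of the 19 chromosomes.

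The difference was of like size at all distances from a region and with or without weaker neighbours. The log2 difference was 0.37 (0.23 to 0.51) at 2 to 10 kb from an H3K4me3 region, 0.33 (0.24 to 0.42) at 10 to 50 kb and 0.45 (0.34 to 0.56) farther away, with overlapping intervals. It was 0.36 at the 1569 sites without any other site within 12.5 kb and 0.41 at the 1377 with a weaker one. The ratios themselves moved with distance. The wild-type ratio was 0.811 at 2 to 10 kb, 0.872 at 10 to 50 kb and 1.015 (0.958 to 1.07) farther away. At the sites over 50 kb from a region, the wild-type library thus showed no dip by this measure. The STAT3-deficient ratios were 1.05, 1.10 and 1.39. The ratios also moved with the amount of mark beside the site. In the 1057 sites with at most 16 pooled H3K4me3 reads at 300 to 1000 bp, the wild-type and STAT3-deficient ratios were 0.999 and 1.36, and in the 881 sites with over 24 such reads they were 0.829 and 1.06. The log2 differences were 0.45 and 0.35 in these groups.

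Other classes of phospho-STAT3 sites were set beside the isolated ones to see whether the pattern went with strength, with isolation or with distance from H3K4me3. At 1638 strong sites away from H3K4me3 that had a strong neighbour within 12.5 kb, the wild-type ratio was 0.826 and the STAT3-deficient ratio 1.15. Their log2 difference of 0.48 (0.40 to 0.56) exceeded that of the isolated sites by 0.10, with an interval of the isolated minus the clustered value from -0.21 to 0.01 that includes 0. At 13291 weaker sites away from H3K4me3, both libraries were highest over the summit, with 1.16 in wild-type and 1.26 in STAT3-deficient cells. Their log2 difference of 0.13 (0.10 to 0.16) was smaller than that of the isolated strong sites by 0.25 (0.18 to 0.32). Among sites away from H3K4me3, the difference was thus larger at strong than at weaker sites, and it was present without a strong neighbour. The weaker sites had a median excess of 16.1 reads, against 34.2 at the isolated strong sites, so their summits rested on fewer reads. How the placing of summits affects the ratio was not tested.

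At the 1010 isolated strong sites inside H3K4me3 regions, both libraries dipped at the summit, with ratios of 0.811 (0.791 to 0.832) in wild-type and 0.832 (0.814 to 0.851) in STAT3-deficient cells. The log2 difference there was 0.04 (-0.01 to 0.08), and that of the isolated sites away from the mark was larger by 0.34 (0.26 to 0.42). The median phospho-STAT3 excess was 32.3 reads at these sites and 34.2 at those away from the mark, both above the same minimum of 26, and the classes were not matched for strength. The intervals of these differences are Woolf intervals and cover counting error between these libraries only. The wild-type library held 8839 centre reads at the 1010 sites inside regions and 5524 at the 2946 isolated sites away from the mark. The level per site was thus higher inside regions, where an equal change in reads per site gives a smaller change of the ratio. Whether the change in reads per site differed between these classes was not tested.

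**Figure D5:**
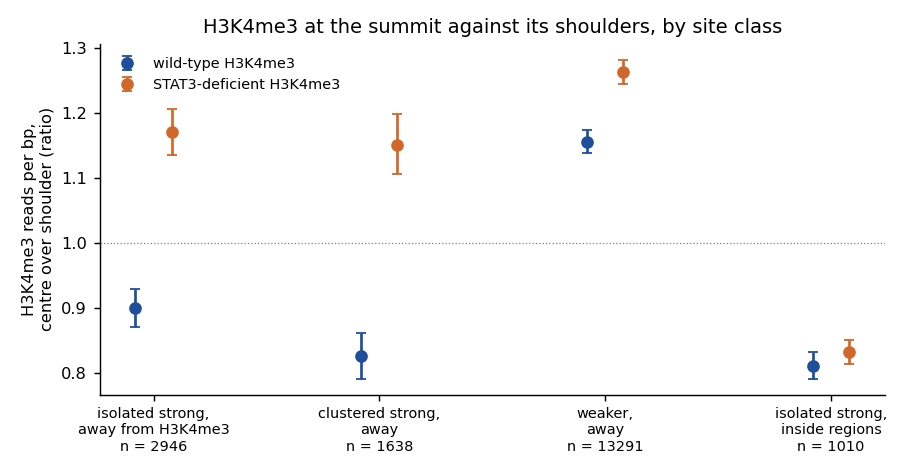
H3K4me3 reads per bp within 100 bp of the summit over those at 100 to 300 bp, in 4 classes of phospho-STAT3 sites, for the wild-type (blue) and STAT3-deficient (orange) library with exact 95% intervals. The libraries part at strong sites away from H3K4me3 (0.900 and 1.17 for isolated ones) and come close at strong sites inside regions (0.811 and 0.832). Sites inside regions hold more reads, so an equal change in reads per site moves the ratio less there.

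Although the sites were chosen to lie away from H3K4me3 regions, a small local rise of reads was present in the H3K4me3 libraries. Within 500 bp of the summits, H3K4me3 reads per bp were 1.24-fold those at 3 to 5 kb in wild-type cells and 1.25-fold in STAT3-deficient cells. Flanks of sites near a region hold part of that region, and at the 2385 sites over 10 kb from one the values were 1.35 and 1.41. Weaker sites away from H3K4me3 had 1.20 in both libraries, while isolated strong sites inside regions had 6.43 and 7.68. Whether reads can be placed equally well at summits and flanks was not tested. Without an input library, a rise of the mark and a rise of background reads cannot be told apart.

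At 33 of the isolated sites (1.12%, Wilson interval 0.799 to 1.57) the site caller also called the place in at least 1 H3K4me3 library, and at 12 in both. The share was 1.34% at clustered strong sites and 1.03% at weaker sites away from H3K4me3, so the isolated sites did not stand apart, and the rule itself keeps it low in these 3 classes. Some of the 33 carried a small amount of mark with a deep dip in both genotypes: at chr2:30798200-30798649, with 113 phospho-STAT3 reads, the wild-type library held 3 centre and 42 shoulder reads and the STAT3-deficient library 2 and 28. At chr18:78175600-78175999 the wild-type library held 2 and 31, but the STAT3-deficient library only 4 and 6. At chr13:74907850-74908349 the shoulders were instead high without STAT3, with 1 and 10 wild-type reads against 3 and 36. These 3 were picked after their values were seen and show that single sites went both ways. Without the 33 sites the log2 difference of centre over shoulder was 0.39.

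The last question was whether H3K4me3 regions that lie nearest to an isolated site differ between genotypes. Of the isolated sites, 1643 had a region with at least 50 pooled reads within 50 kb, and together they pointed to 1459 regions. With the median of all such regions set to 0, 34 of the 1459 (2.33%, Wilson interval 1.67 to 3.24) were lower in STAT3-deficient cells by at least 2-fold with an interval that left out 0 on the log2 scale, and 23 (1.58%, 1.05 to 2.35) were higher. Over all 10971 regions, 1.16% were called lower and 1.01% higher, so by this scaling the share of lower regions was above the background, whose interval is 0.974 to 1.38. For higher regions within 50 kb the intervals overlap (0.841 to 1.22 for the background), and their share is not a result about the isolated sites. The median log2 ratio of the 1459 regions was -0.01, close to the 0 to which all regions were set. The 4654 regions nearest to weaker sites away from H3K4me3 had shares of 1.61% lower and 1.46% higher. At clustered strong sites away from H3K4me3, 29 of the 556 nearest regions within 50 kb were lower, a share of 5.22% (3.66 to 7.39) that lies above the interval for isolated sites. Within 10 kb, the shares of lower regions were 6.35% (3.95 to 10.1) of 252 for clustered and 3.08% (1.77 to 5.31) of 389 for isolated sites, with overlapping intervals. The shares of higher regions there were 2.78% (1.35 to 5.62) for clustered and 2.31% (1.22 to 4.34) for isolated sites. Within 10 kb of isolated sites, both directions were thus above the shares over all regions. A region can be nearest to sites of more than 1 class, and these differences were not tested.

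The counts of nearest regions moved with the scaling and the region calls, and the background moved with them. By library totals, 13 of the 1459 regions were lower (0.891%) and 62 higher (4.25%), against 0.492% and 2.91% of all regions. When only wild-type reads were used to call regions, 30 of 1261 were lower (2.38%) and 3 higher (0.238%), against 1.31% and 0.135% of all such regions. When only STAT3-deficient reads were used, 5 of 1328 were lower (0.377%) and 21 higher (1.58%), against 0.228% and 1.27%. Which direction held more regions thus followed the scaling and the library used for calling, at isolated sites and over all regions. In each of these settings the shares at isolated sites were above the background in both directions. A share above the background was therefore not particular to lower regions, and intervals were not computed for these settings.

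Folds of single regions are given after the same setting of the median to 0. The lower region with the interval farthest from 0 was chr14:56384800-56385399, with 63 reads in wild-type and 13 in STAT3-deficient cells, 5.95-fold lower. Its isolated site, at chr14:56387450-56387849 with 57 phospho-STAT3 reads, lay 2.20 kb away and was the only phospho-STAT3 site within 10 kb. The next was chr13:56710600-56711599, with 48 and 13 reads, 4.53-fold lower, and the third tallest isolated site lay at 7.95 kb. The region chr9:20529800-20531199 held 64 and 20 reads, a log2 ratio of -1.97, with its isolated site 3.35 kb away and no other. In these 3 regions the isolated site was the only strong one within 10 kb. The regions chr13:41016400-41016999 (55 and 17 reads) and chr3:107560400-107563399 (160 and 65 reads) had another strong site within 10 kb, and their isolated sites were 31.8 and 33.6 kb away.

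Of the 5 higher regions named by the same rule, all were over 10 kb from their isolated site. This comes from picking 5 by ratio. Among the 389 nearest regions within 10 kb of an isolated site, 12 (3.08%) were called lower and 9 (2.31%) higher. Over all regions the shares were 1.16% and 1.01%, so called regions of both directions lay that near. The region chr1:163716400-163718999 held 22 wild-type and 134 STAT3-deficient reads, 4.96-fold higher, and its isolated site was 19.5 kb away. The region chr9:115519800-115520799, with 6 and 51 reads, was 6.92-fold higher, at 49.3 kb from its site. The regions chr14:28051200-28052399 (12 and 77 reads), chr17:12883600-12884799 (19 and 102) and chr1:40522400-40524799 (38 and 162) were 5.23-fold, 4.37-fold and 3.47-fold higher, at 10.1, 23.4 and 20.7 kb from the nearest isolated site. The first 4 of these 5 higher regions had 0 strong sites within 10 kb, and the region on chromosome 1 from 40522400 had 1. All of these regions were picked for their ratios, and their order is a description.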

How the data were processed

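The authors deposited aligned reads, 1 line per 25 bp read with its position, strand and match code. The build was mm9 and SICER was among the tools, per the submitters' processing notes. The aligner and the versions of the authors' tools were not given in the sources used here. No position and strand held more than 1 read in any deposited file, and 3.90% to 4.58% of reads had a mismatch. Libraries had 18 PCR cycles and fragments of about 250 bp with adapters, per the labels' protocols.

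Reads were moved 75 bp towards the fragment's centre. H3K4me3 regions were windows of 200 bp with at least 12 pooled reads, joined over gaps of up to 600 bp, with at least 2 windows; the mappable share of the genome was set to 0.8. Sites, ratios and intervals were computed with Python 3.11.15, numpy 2.4.6, scipy 1.17.1 and pandas 2.3.3, and the site caller, the size rule and the centre-over-shoulder interval were tested on simulated data. The simulations used an even background, planted changes larger than the 2-fold of the size rule, and Poisson counts. They held no variation between libraries, so they do not show how the rules perform under it. Named sites were the 15 tallest, the 3 on either side of the threshold, the 5 farthest from a region, and, lower and higher, the 5 sites and 5 regions called with the largest distance between 0 and the nearer interval bound. Members, lists and measures were chosen with earlier results of these data known, and the centre-over-shoulder measure, its alternatives and the alternative of sites over 10 kb from a region after seeing the data. Alternatives were other scalings, windows, flanks, thresholds and region calls.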

Additional observations from a re-analysis of the deposited data

Results flagged for a closer look

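The match codes, which the comparisons do not use, showed 4 isolated sites where over 50% of the phospho-STAT3 reads of the highest window differed from the reference. At chr18:73692900-73693299 this held for 36 of 37 reads, at chr13:9010850-9011299 for 30 of 35 and at chr17:36368000-36368749 for 65 of 86. The fourth, at chr18:40467650-40468099, had 32 of 52 and also had the most wild-type H3K4me3 reads within 1 kb of any isolated site, 70 beside 63 in STAT3-deficient cells. There, 58 wild-type reads and 55 reads without STAT3 lay within 100 bp of the summit, and 34 and 35 of the reads within 1 kb had a mismatch. Their cause was not tested. The share of such sites was 0.136% (Wilson interval 0.0528 to 0.349) against 0.188% of all phospho-STAT3 sites, and the median share of mismatched reads at an isolated site was 3.23%.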

How the results depend on the processing

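No paired analysis was possible because each group had 1 library. The number of isolated sites was 2325 to 3250 over 6 other rules. The summed log2 ratio of H3K4me3 was -0.32 scaled by the median of regions, 0.024 scaled by reads outside regions, 0.026 within 500 bp and -0.11 with reads at 3 to 5 kb subtracted. Lower and higher sites numbered 191 and 14 with the first scaling, 28 and 29 within 500 bp, and 28 and 30 within 2 kb. Shares over all sites are given above for the first scaling. For the 500 bp and 2 kb windows they are not given, so those counts are not a result about the isolated sites. The centre over flank was 1.22 in wild-type and 1.23 in STAT3-deficient cells without sites also called in H3K4me3, 1.35 and 1.41 over 10 kb from a region, and 1.28 in STAT3-deficient cells with flanks at 5 to 10 kb. Nearest regions, lower and higher, numbered 13 and 62 by library totals, 12 and 9 within 10 kb, and 16 and 12 with at least 100 pooled reads. Within 10 kb these were 3.08% and 2.31% of 389, against 1.16% and 1.01% of all regions. With at least 100 pooled reads they were 1.39% and 1.05% of 1148, against 0.577% and 0.715% of 7276. Regions called on wild-type alone gave 3 higher, and on STAT3-deficient alone 5 lower. The centre-over-shoulder difference was 0.16 without moving reads and 0.32 to 0.39 under the other 8 alternatives. Where no cause is named, the cause was not tested. The search for STAT motifs was not run, since no mm9 genome was used here. With a median of 15 to 16 H3K4me3 reads per site, depth limits what most single sites show, apart from a few with more of the mark.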

Other observations

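On chromosome X, which the rule leaves out, 10 of 336 phospho-STAT3 sites met the other conditions. They held 18 centre and 36 shoulder reads in the wild-type and 20 and 38 in the STAT3-deficient H3K4me3 library, a log2 difference of centre over shoulder of 0.07 (Woolf 95% interval -1.06 to 1.20), so neither the difference seen on the other chromosomes nor its absence was detectable at this depth.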
